A study of Mus musculus with 4 samples.

Results

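RNA polymerase I and the factors that bring it to ribosomal DNA were followed in cultured mouse female germline stem cells (FGSCs) after knockdown of *Nat10*. The members were 10 genes chosen by symbol, namely the subunit genes *Polr1a*, *Polr1b*, *Polr1c*, *Polr1d* and *Polr1e*, the factor genes *Ubtf* and *Rrn3*, and the selectivity factor genes *Taf1b*, *Taf1c* and *Taf1d*. All 10 were found among the 53465 genes of the deposited expression table, and all 10 passed the filter on low values that left 20116 genes for testing. Long RNA-seq was available for 2 libraries of FGSCs that carried a lentiviral control shRNA (shNC) and 2 libraries of FGSCs that carried a lentiviral shRNA against *Nat10* (shNAT10), described in the study as biological replicates. The labels gave the ovary as the tissue of both groups and named no strain, age or time after infection, and both groups had gone through the same transduction. The experiment was made so that transcript levels could be read beside RNA-RNA contacts in the same cells, and the contact data were not analysed here.

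RNA polymerase I (Pol I) makes 1 transcript only, the long precursor from which most of the ribosome's RNA is cut, and it works in the nucleolus. UBF, the product of *Ubtf*, coats the active ribosomal repeats, and the selectivity factor SL1, built of TBP and TAF1 subunits, sits on their promoter. TIF-IA, the product of *Rrn3*, binds the polymerase and carries it to SL1, and growth signals act on this step. NAT10 is a nucleolar acetyltransferase that writes N4-acetylcytidine on RNA, ribosomal RNA included, so its knockdown touches the compartment in which Pol I works. Messenger RNA levels of the machinery say nothing direct about how often the ribosomal repeats were transcribed.

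*Nat10* itself was read first, because it checks the labels. Its level, in FPKM (fragments per kilobase of exon, divided by a factor for each library), was 7.79 and 5.42 in shNC against 2.95 and 3.04 in shNAT10. Either shNAT10 library was lower than either control. The log2 fold change of shNAT10 over shNC was -1.09 (SE 0.21, 95% interval -1.63 to -0.55, limma unadjusted p = 0.00411, adjusted p = 0.123). On fragments recovered from the FPKM it was -1.11 (limma-voom unadjusted p = 1.52e-07, adjusted p = 1.69e-05). The difference was no longer past the threshold without shNAT10 replicate 1 (-1.07, limma unadjusted p = 0.0915) or without shNAT10 replicate 2 (-1.11, limma unadjusted p = 0.0859).

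The libraries held about 11055800 to 14900400 fragments, recovered from the FPKM with the exon lengths of the annotation. The factor by which the deposited FPKM had been divided was not this total. It stood for about 11745600 and 11871400 fragments in shNC, below the recovered totals of 14900400 and 13026700, and for 12551800 and 15330600 in shNAT10, above the recovered totals of 11055800 and 13768900. A list of 9 loci taken as related to ribosomal RNA was set apart, such as *Gm42418*, *CT010467.1*, *Gm23935*, *Lars2* and the study's lncRNA *Gm26917*. Their place on ribosomal repeats was not checked. In this list 6 estimates were lower and 2 higher in shNAT10 (*Gm10800* and *Gm10801*). With all genes annotated as rRNA, these loci took 46.9% and 36.3% of the recovered fragments with the control shRNA, against 24.2% and 26.2% with the *Nat10* shRNA. Their part in the results below was not tested. Of 10 germline stem cell markers, 4 were listed at 0 in all 4 libraries (*Dazl*, *Dppa3*, *Pou5f1* and *Sall4*), and the summed level of the list was 9.90 and 22.8 in shNC against 28.0 and 34.4 FPKM in shNAT10. Nearly all of that sum was *Ifitm3*, an interferon-inducible gene that is not confined to germ cells, at 9.29 and 22.2 in shNC against 27.1 and 33.6 FPKM in shNAT10 (not called), and the other 9 markers were each under 1 FPKM in every library. The 6 leukocyte markers summed to 274 and 304 in shNC against 247 and 264 FPKM in shNAT10, with 0 of 6 at 0. *Coro1a* (137 to 164 FPKM) and *Lcp1* (78.5 to 108 FPKM) made up most of that sum. Of the 6, 3 were called lower, beside 7.83% of all genes (threshold below). The 8 mast cell markers summed to 271 and 284 in shNC against 291 and 287 FPKM in shNAT10, with 2 of 8 at 0. *Cpa3* (245 to 272 FPKM) made up most of that sum, and 4 of 8 passed the filter on low values. Of the 8, 1 was called lower (*Kit*, log2 fold change -0.60) and 1 higher (*Ms4a2*, log2 fold change 2.12). The 6 fibroblast markers summed to between 46.7 and 63.9 FPKM in all 4 libraries, with 1 of 6 at 0 and 2 of 6 called higher (*Pdgfra*, log2 fold change 0.83, and *Thy1*, 0.76), and the 6 granulosa cell markers to between 2.45 and 3.81 FPKM, with 2 of 6 at 0. The 4 markers of meiosis summed to between 1.39 and 2.48 FPKM, with 2 of 4 at 0. Of the other germline markers, *Zbtb16*, *Gfra1* and *Prdm1* were above 0 in every library and *Ddx4* in 1 of 4. With the levels of the leukocyte and mast cell lists, these values leave the identity of the cultures in doubt, and FGSCs is used here as the name in the labels. The part of the other markers in the results was not tested. In bulk RNA, fewer cells of a type and less RNA in each cell cannot be told apart.

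All 10 members were expressed, over a 32.5-fold range of mean level. FPKM are scaled by exon length, so the order compares levels per base of the gene model, which for *Taf1d* and in part for other members includes non-coding transcripts. *Taf1d* stood highest with a mean of 61.7 FPKM over the 4 libraries, and *Ubtf* followed with 36.8 FPKM. *Polr1d* (27.3 FPKM) and *Polr1c* (23.3 FPKM), whose products form the assembly platform that Pol I shares with RNA polymerase III (Pol III), came next. *Rrn3* had a mean of 16.4 FPKM and *Taf1b* of 11.6 FPKM. The catalytic subunit genes stood low, *Polr1a* at 3.72 FPKM and *Polr1b* at 1.90 FPKM, with *Polr1e* at 3.54 FPKM and *Taf1c* at 2.42 FPKM between them. Neighbours in this order whose library ranges overlapped were *Polr1d* and *Polr1c*, *Polr1a* and *Polr1e*, *Polr1e* and *Taf1c*, and *Taf1c* and *Polr1b*. The platform genes were thus listed well above the catalytic pair, although the proteins meet in 1 enzyme.

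**Figure D1:**
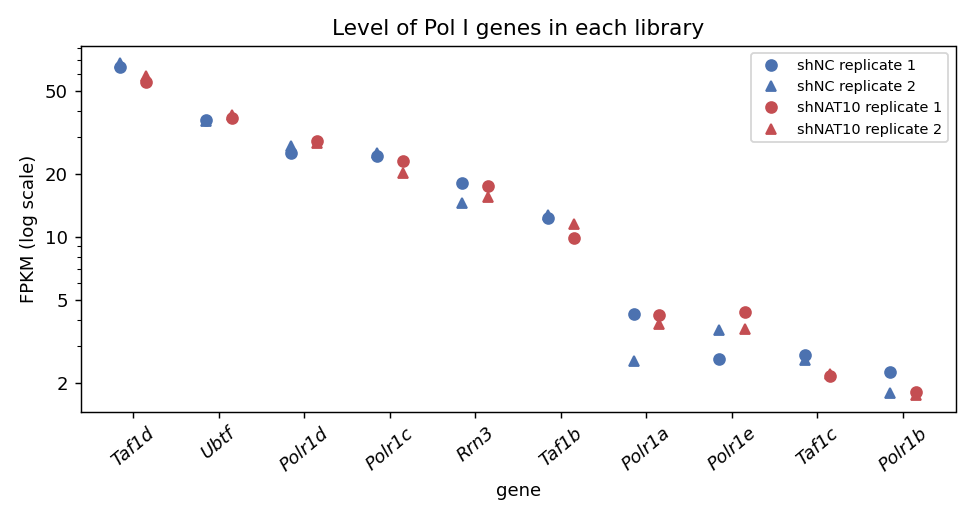
Level of each Pol I gene in each library (FPKM, log axis), ordered by mean level, with shNC in blue and shNAT10 in red, circles for replicate 1 and triangles for replicate 2. The means ran from 61.7 FPKM for *Taf1d* to 1.90 FPKM for *Polr1b*, and the libraries of a gene lay close together beside this range.

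None of the 10 members was called between shNAT10 and shNC. A gene was called at a fold change over 1.2 with an unadjusted p of at most 0.05, the threshold of the study, and 16.2% of the 20116 genes tested were called (8.41% higher and 7.83% lower in shNAT10). The limma test gave 0 of 10 members at an unadjusted p under 0.05, beside 16.6% of all genes, and 0 of 10 at an adjusted p under 0.05, beside 0.437%. Limma-voom on the recovered fragments called 0 of 10, beside 19.4% of all genes, with 1 of 10 (*Taf1d*) at an unadjusted p under 0.05. Adjusted p of the members ran from 0.307 to 0.947 with limma. The estimates lay above 0 for 5 members and below 0 for 5, with a median log2 fold change of -0.07, beside 0.0054 over all genes tested. Leaving out 1 library gave a members' median from -0.15 to 0.030. All 10 intervals held 0, and their bounds ran from a fold of 0.633 to a fold of 1.99. For 6 of 10 members the 95% interval stayed within a 1.5-fold change in either direction, and for the other 4 a change of 1.5-fold or more lay inside it. With 2 libraries against 2, the smallest p an exact permutation test can give is 0.3333.

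**Figure D2:**
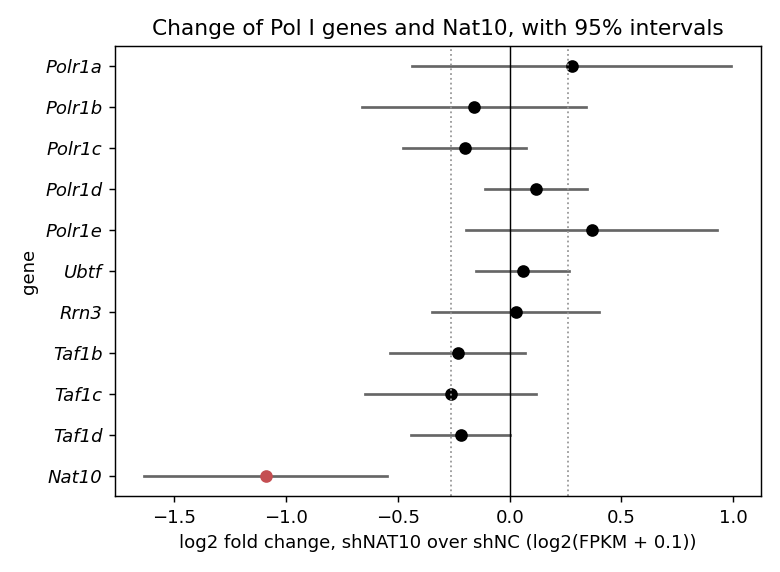
Log2 fold change of shNAT10 over shNC for the Pol I genes and *Nat10*, on log2(FPKM + 0.1), with 95% intervals from limma over 2 libraries per group; dotted lines mark a fold of 1.2 in either direction. The interval of each of the 10 Pol I genes holds 0, and that of *Nat10* lies between -1.63 and -0.55.

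The libraries of the groups did not overlap for 7 of 10 members, 3 higher (*Polr1d*, *Polr1e* and *Ubtf*) and 4 lower (*Polr1c*, *Taf1b*, *Taf1c* and *Taf1d*) in shNAT10. Among all genes tested, 48% did not overlap (23.9% higher and 24.1% lower). When the libraries were scaled to all recovered fragments, the loci related to ribosomal RNA included, the median over all genes moved to 0.38 (log2). With this scaling 5 members were called higher (*Polr1a*, *Polr1d*, *Polr1e*, *Ubtf* and *Rrn3*), beside 26.3% of all genes. The estimates of the other 5 turned to between 0.13 and 0.23. This scaling moves all genes of a library alike. Relative to its median, the 5 that turned lay below 0, from -0.25 for *Taf1c* to -0.15 for *Polr1b*, and the 5 called lay above 0, from 0.05 for *Rrn3* to 0.38 for *Polr1e*. The directions given below are those of the FPKM as deposited.

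The subunits of the core enzyme showed no shared direction. *Polr1a* encodes the largest subunit, which holds most of the active centre. On mouse build GRCm38 it spans chr6:71909053-71984935 on the plus strand, with 11871 exon bases. Its level was 4.26 and 2.55 in shNC against 4.24 and 3.81 FPKM in shNAT10, from 594, 360, 632 and 694 fragments. On the log2 scale the shNC libraries lay farther apart than those of any other member, and the shNAT10 libraries lay between them. Between the groups the log2 fold change was 0.28 (SE 0.27, 95% interval -0.44 to 0.99, limma adjusted p = 0.644). Without shNC replicate 1 it was 0.63 and past the threshold (limma unadjusted p = 0.0386), and without shNC replicate 2 it was -0.081, so a single control library set the sign.

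*Polr1b* encodes the second largest subunit, which closes the active centre with the product of *Polr1a*. It lies at chr2:129100995-129126594 on the plus strand. Its level was 2.24 and 1.78 in shNC against 1.81 and 1.75 FPKM in shNAT10, from 123 to 156 fragments in a library. Only shNC replicate 1 stood above the others, and the groups overlapped. On the log2 scale the fold change was -0.16 (SE 0.19, 95% interval -0.66 to 0.34, limma adjusted p = 0.713). Without shNC replicate 1 it was -0.0021, and without shNC replicate 2 it was -0.32.

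*Polr1c* and *Polr1d* encode the pair of small subunits on which both Pol I and Pol III are assembled. *Polr1c* (chr17:46243920-46248054, minus strand) was at 24.4 and 25.3 in shNC against 23.2 and 20.2 FPKM in shNAT10. Both shNAT10 libraries were lower than both shNC libraries, replicate 2 by more. The log2 fold change was -0.20 (SE 0.10, 95% interval -0.48 to 0.07, limma adjusted p = 0.429), and without shNAT10 replicate 1 it was -0.30 and past the threshold (limma unadjusted p = 0.0456), while without shNAT10 replicate 2 it was -0.10 (limma unadjusted p = 0.253).

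*Polr1d* (chr5:147077050-147111597, plus strand) was at 25.2 and 27.2 in shNC against 28.6 and 28.1 FPKM in shNAT10. Both shNAT10 libraries were higher than both shNC libraries. Between the groups the log2 fold change was 0.12 (SE 0.09, 95% interval -0.11 to 0.35, limma adjusted p = 0.567), and without shNC replicate 1 it was 0.063. The ratio of *Polr1c* to *Polr1d* within a library, which no scaling of the library can move, was 0.971 and 0.930 in shNC and 0.808 and 0.716 in shNAT10. This ratio has no test, and 32.1% of all genes tested had a ratio to *Polr1d* that lay lower in shNAT10 with no overlap.

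*Polr1e* encodes a subunit of the peripheral pair that helps the enzyme start and elongate. It lies at chr4:45018583-45036565 on the plus strand. Its level was 2.6 and 3.59 in shNC against 4.35 and 3.62 FPKM in shNAT10. The groups did not overlap, but shNC replicate 2 and shNAT10 replicate 2 were nearly level. On the log2 scale the fold change was 0.37 (SE 0.21, 95% interval -0.19 to 0.93, limma adjusted p = 0.475), the largest estimate of the members, on 119 to 216 fragments in a library. Without shNC replicate 1 it was 0.14, without shNC replicate 2 it was 0.59, and without shNAT10 replicate 1 it was 0.24.

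The partner of the *Polr1e* product in that pair is encoded by *Cd3eap* (also Polr1g), which is not a member. *Cd3eap* was at 9.09 and 8.55 in shNC against 10.8 and 12.4 FPKM in shNAT10. It rose by 0.39 on the log2 scale (SE 0.12, 95% interval 0.08 to 0.70, limma unadjusted p = 0.0242, adjusted p = 0.233). The call was kept without shNAT10 replicate 1 and lost without each of the other 3 libraries in turn. The ratio of *Polr1e* to *Cd3eap* was 0.286 and 0.420 in shNC and 0.404 and 0.291 in shNAT10, so the groups overlapped. The ratio of *Polr1a* to *Polr1b* was 1.90 and 1.43 in shNC and 2.34 and 2.18 in shNAT10, higher in both shNAT10 libraries, with no test, and 31.7% of all genes tested had a ratio to *Polr1b* that lay higher with no overlap.

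*Ubtf* and *Rrn3*, which encode UBF and TIF-IA, had the estimates nearest 0. *Ubtf* (chr11:102304560-102319742, minus strand) was at 36.2 and 35.9 in shNC against 36.9 and 38.1 FPKM in shNAT10, from 2785 to 3831 fragments in a library. The shNAT10 libraries lay just above the shNC libraries. The log2 fold change was 0.06 (SE 0.08, 95% interval -0.15 to 0.26, limma adjusted p = 0.750), an interval from a fold of 0.902 to a fold of 1.201, and without shNAT10 replicate 2 it was 0.034. *Ubtf* makes a full-length and a shorter splice form of UBF, and a gene-level FPKM holds both.

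*Rrn3* (chr16:13780708-13814839, plus strand) was at 18 and 14.6 in shNC against 17.5 and 15.6 FPKM in shNAT10. In each group replicate 1 was the higher library, and the groups overlapped fully. Between the groups the log2 fold change was 0.03 (SE 0.14, 95% interval -0.35 to 0.40, limma adjusted p = 0.947). It was -0.13 without shNC replicate 2 and -0.06 without shNAT10 replicate 1, so the sign was not fixed. The annotated exon length of 4318 bases did not give whole fragments for this gene, and 3597 bases did, so the deposited values rest on a different gene model from the one used here.

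The 3 SL1 subunits among the members all had lower estimates in shNAT10, and the groups overlapped for none of them, with a median log2 fold change of -0.23 and 0 of 3 called. Among all genes tested, 24.1% lay lower with no overlap. Scaled to all recovered fragments, all 3 estimates turned above 0 with the shift of all genes, and relative to that median they were -0.21 for *Taf1b*, -0.25 for *Taf1c* and -0.19 for *Taf1d*. *Taf1a* encodes a further SL1 subunit, is no member and was looked at after its values were seen. It was at 5.37 and 4.79 in shNC against 5.09 and 3.66 FPKM in shNAT10, and its groups overlapped. Its log2 fold change was -0.23 (SE 0.20, limma adjusted p = 0.603). That of *Tbp*, also in SL1 and no member, was -0.12 with no overlap (limma adjusted p = 0.654). *Taf1b* encodes the subunit that resembles the Pol II factor TFIIB and contacts the polymerase. It lies at chr12:24498359-24558539 on the plus strand. Its level was 12.3 and 12.7 in shNC against 9.90 and 11.5 FPKM in shNAT10. The shNC libraries were close and the shNAT10 libraries lay apart below them. On the log2 scale the fold change was -0.23 (SE 0.11, 95% interval -0.53 to 0.07, limma adjusted p = 0.403), and without shNAT10 replicate 2 it was -0.34 and past the threshold (limma unadjusted p = 0.0448), while without shNAT10 replicate 1 it was -0.13 (limma unadjusted p = 0.212).

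*Taf1c*, whose product links SL1 to TIF-IA, was at 2.71 and 2.58 in shNC against 2.17 and 2.21 FPKM in shNAT10. The libraries of each group nearly coincided, and the groups did not overlap. The log2 fold change was -0.26 (SE 0.14, 95% interval -0.65 to 0.12, limma adjusted p = 0.453). It had the fewest fragments of the members, 111, 107, 95 and 118 in the 4 libraries, and counting error alone gave an SE of 0.14 on the log2 scale. The gene (chr8:119597871-119605222, minus strand) shares 584 of its 3490 exon bases with *Dnaaf1* on the opposite strand, at 0.724 and 0.687 in shNC against 0.311 and 0.462 FPKM in shNAT10. Whether the counting used strand is not given in the sources used here, so reads from the 2 genes may not be told apart.

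*Taf1d*, a smaller SL1 subunit gene that also hosts small nucleolar RNAs, was at 64.7 and 68.2 in shNC against 55.3 and 58.8 FPKM in shNAT10. Both shNAT10 libraries were lower, and the gap between groups was wider than the gap within either. Between the groups the log2 fold change was -0.22 (SE 0.08, 95% interval -0.44 to 0.0026, limma unadjusted p = 0.0518, adjusted p = 0.307), the smallest p of the members. Limma-voom gave an unadjusted p of 0.0195 and an adjusted p of 0.143 for a log2 fold change of -0.22, under the fold of 1.2. With 28323 fragments it was the most deeply read member, and counting error alone gave an SE of 0.017.

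Most of the sequence behind the *Taf1d* value was not coding transcript. The gene spans chr9:15306214-15316991 on the plus strand, and its 16 annotated transcripts merge into 8949 exon bases, of which the 5 coding transcripts cover 1769 bases (19.8%). The 6 retained intron transcripts cover 8066 bases. On the same strand 8 snoRNA genes and 2 miRNA genes lie inside it, beginning 6339 bases from its start, beyond the last base of the coding transcripts at 5891. All 10 were listed at 0 in all 4 libraries. The level of the *Taf1d* coding messenger RNA, and the place of *Taf1d* at the head of the order, can therefore not be read from this FPKM.

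**Figure D3:**
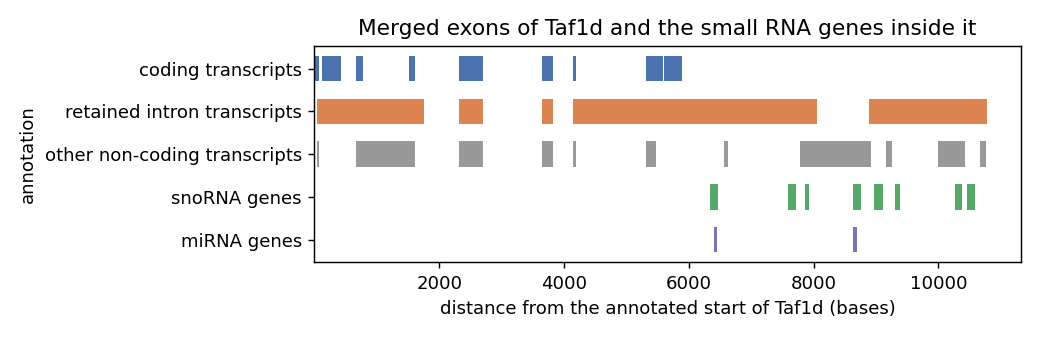
Merged exons of the *Taf1d* transcripts by class, and the small RNA genes inside the gene, by distance from its annotated start in bases. Coding transcripts end at base 5891, while the retained intron transcripts and all 8 snoRNA genes extend past it.

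Set against *Ubtf* in the same library, the 3 SL1 subunits among the members lay lower in both shNAT10 libraries. The limits given above for the *Taf1c* and *Taf1d* values hold for these ratios too. *Taf1a* did not lie lower in both, with ratios of 0.148 and 0.134 in shNC against 0.138 and 0.0958 in shNAT10. The ratio of *Taf1b* to *Ubtf* was 0.341 and 0.355 in shNC and 0.268 and 0.300 in shNAT10. The ratio of *Taf1c* to *Ubtf* was 0.0748 and 0.0720 in shNC and 0.0588 and 0.0578 in shNAT10. The ratio of *Taf1d* to *Ubtf* was 1.79 and 1.90 in shNC and 1.5 and 1.54 in shNAT10. Such a ratio is free of the scaling of the library. A ratio to *Ubtf* that lay lower in shNAT10 with no overlap was found for 28.3% of all genes tested, and 1 that lay higher for 20.4%. The ratio of *Rrn3* to *Ubtf* was 0.498 and 0.406 in shNC and 0.474 and 0.408 in shNAT10, and its groups overlapped.

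**Figure D4:**
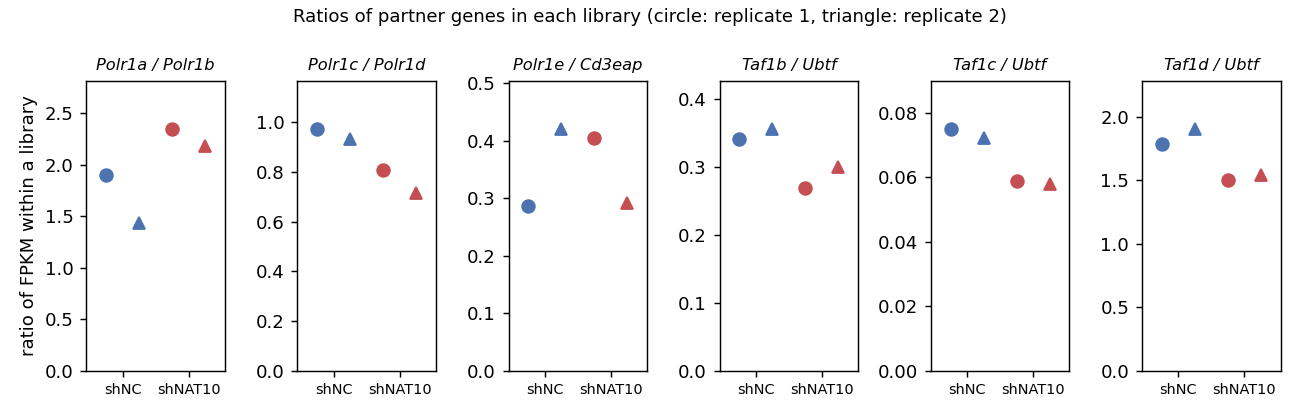
Ratio of FPKM of partner genes within each library, with shNC in blue and shNAT10 in red, each panel on its own linear axis from 0. The ratio of *Polr1c* to *Polr1d* and the 3 ratios of SL1 subunits to *Ubtf* lie lower in both shNAT10 libraries. That of *Polr1e* to *Cd3eap* overlaps between groups. The *Taf1d* gene model is mostly non-coding, and the *Taf1c* value may hold reads from *Dnaaf1*.

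The start regions of the members were read in RefSeq windows on GRCm38.p6, from 250 bases before to 50 bases after the annotated start, and all 10 members had a window. The letters CCGGAA, the core word that ETS factors bind, or TTCCGG on the other strand, occurred in 5 of 10 members (*Polr1c*, *Polr1e*, *Rrn3*, *Taf1b* and *Taf1c*) and in 14.9% of all 32851 windows. The E-box CACGTG, the word that MYC and MAX bind, occurred in 1 of 10 members, *Rrn3*, which held it at 2 places, and in 7.15% of all windows. The GC box GGGCGG, or CCGCCC, occurred in 7 of 10 members and 35.7% of windows, the word CCAAT, or ATTGG, in 2 of 10 and 37.4%, and TATAAA, or TTTATA, in 0 of 10 and 13.6%. Shown are the *Rrn3* E-boxes, because *Myc* is among the regulators below, and those ETS words of *Polr1c*, *Taf1b* and *Taf1c* that lie before the RefSeq start, because these 3 genes had lower estimates in shNAT10. *Polr1b* and *Taf1d*, whose estimates were also lower, held no ETS word, and *Polr1e* and *Rrn3*, whose ETS words are not shown, had estimates above 0. The gene spans given with each member are those of GENCODE, which starts *Polr1d* 296, *Taf1b* 222 and *Ubtf* 150 bases before RefSeq. The *Taf1b* word and the second *Taf1c* word thus lie inside the GENCODE gene. So does the whole *Polr1d* window, which held none of the words. Each word is in capitals and the bases around it are in lower case.
Rrn3 E-box, chr16:13780474-13780499, plus strand: gcgccaaggtCACGTGcacacgcctc
Rrn3 E-box, chr16:13780641-13780666, plus strand: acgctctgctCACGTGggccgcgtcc
Polr1c ETS core, chr17:46248072-46248097, minus strand: cacttgacgtCCGGAAgtgaaggacg
Taf1c ETS core, chr8:119605217-119605242, minus strand: tcgggcgaacTTCCGGcctgatccgg
Taf1c ETS core, chr8:119605205-119605230, minus strand: ccggcctgatCCGGAAaacagtttag
Taf1b ETS core, chr12:24498375-24498400, plus strand: ctgagctgagTTCCGGgaaagccaga
A match of letters is a description of the window and was not tested as a binding site.

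Among the 11 other genes of the Pol I machinery, 1 was called higher (*Cd3eap*, above) and 0 lower, beside 8.41% and 7.83% of all genes. Their median log2 fold change was -0.0053. The groups did not overlap for 4 of 11, beside 48% of all genes. *Twistnb* (Polr1f), which encodes part of the Pol I stalk, was at 12.4 and 12.8 in shNC against 11.7 and 11.5 FPKM in shNAT10 (limma adjusted p = 0.569). *Znrd1* (Polr1h), which encodes the subunit for transcript cleavage, was at 29.8 and 36.3 in shNC against 28.2 and 29.7 FPKM in shNAT10 (limma adjusted p = 0.539). *Tbp*, which encodes the TATA-binding protein shared by SL1 and the factors of the other polymerases, was at 4.78 and 4.48 in shNC against 4.25 and 4.26 FPKM in shNAT10 (limma adjusted p = 0.654).

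Of 14 regulators of ribosomal DNA, 5 were called, 2 higher and 3 lower, beside 16.2% of all genes. Limma-voom called 8 of 14, beside 19.4% of all genes. The median log2 fold change of the list was 0.014. *Smarca5*, the ATPase of the remodelling complex NoRC that silences ribosomal repeats, rose by 0.42 on the log2 scale from 7.40 and 6.73 FPKM to 10.2 and 8.81 FPKM (limma adjusted p = 0.232). *Suv39h1*, a histone H3K9 methyltransferase of silent repeats, rose by 0.43 from 6.90 and 5.56 FPKM to 8.10 and 8.63 FPKM (limma adjusted p = 0.265). *Baz2a*, the other subunit of NoRC, which was looked at after its values were seen, was at 3.12 and 3.04 in shNC against 2.54 and 2.41 FPKM in shNAT10, with a log2 fold change of -0.30 (limma adjusted p = 0.374). It was not called by limma and was called lower by limma-voom (unadjusted p = 0.0393), so the estimates of the NoRC genes lay on opposite sides of 0.

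The 3 regulators called lower have other roles. *Sirt7*, a nucleolar deacetylase, fell by 0.38 on the log2 scale from 7.01 and 7.28 FPKM to 5.01 and 5.99 FPKM (limma adjusted p = 0.280). *Phf8*, a histone demethylase, fell by 0.70 from 1.01 and 0.940 FPKM to 0.556 and 0.574 FPKM (limma adjusted p = 0.274). *Myc*, which drives many genes of ribosome synthesis, fell by 0.39 from 13.1 and 13.9 FPKM to 11.4 and 9.27 FPKM (limma adjusted p = 0.274). Scaled to all recovered fragments, *Sirt7* and *Myc* stood at 0.025 and 0.018, which put both at -0.36 against the shifted median, and *Phf8* stood at -0.34, or -0.72 against it. *Smarca5* and *Suv39h1* stood at 0.82 and 0.83, or 0.44 and 0.45 against it. When 1 library at a time was left out, the calls of *Smarca5* and *Sirt7* were kept only without shNAT10 replicate 2, that of *Suv39h1* only without shNC replicate 1 and that of *Myc* only without shNAT10 replicate 1. The call of *Phf8* was lost each time.

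The 6 t-UTP genes encode the part of the processome that joins ribosomal DNA transcription to processing. Of these, 1 was called higher and 0 lower, beside 8.41% and 7.83% of all genes. Their median was 0.12, and leaving out 1 library gave 0.052 to 0.119. *Wdr43* rose by 0.38 on the log2 scale from 35.3 and 45.2 FPKM to 51.3 and 52.4 FPKM (limma adjusted p = 0.297). It kept its call only when shNC replicate 2 was left out.

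Genes of the other polymerases were counted in the same way. Of 11 Pol III subunit genes, 1 was called higher and 1 lower, beside 8.41% and 7.83% of all genes. Their median was -0.09, and leaving out 1 library gave -0.145 to -0.0058. *Polr3c*, the one called lower, fell by 0.53 on the log2 scale from 23.4 and 21.9 FPKM to 14.4 and 17.0 FPKM (limma adjusted p = 0.155). Of 15 Pol III factor genes, 1 was called, beside 16.2% of all genes. Their median was -0.034, and leaving out 1 library gave -0.073 to 0.058, so its sign was not fixed. The called gene was *Maf1*, the repressor of Pol III. It fell by 0.37 from 29.6 and 33.1 FPKM to 24.9 and 23.6 FPKM (limma adjusted p = 0.202). The call of *Polr3c* was lost without either shNC library and that of *Maf1* without either shNAT10 library. Scaled to all recovered fragments, *Maf1* stood at 0.037 and *Polr3c* at -0.13, which is -0.34 and -0.51 relative to the median of all genes.

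Of 7 genes for subunits found only in Pol II, 2 were called lower and 0 higher, beside 7.83% and 8.41% of all genes. Their median was -0.07, and leaving out 1 library gave -0.13 to 0.0085. *Polr2a*, the counterpart of *Polr1a*, fell by 0.46 on the log2 scale from 2.95 and 2.73 FPKM to 1.88 and 2.19 FPKM (limma adjusted p = 0.272), a call lost when any library was left out. *Polr2i* fell by 0.62 from 23.6 and 23.8 FPKM to 16.4 and 14.4 FPKM (limma adjusted p = 0.103), the only one of the 12 calls in these 6 lists that was kept in all 4 such fits. The ratio of *Polr1a* to *Polr2a* was 1.44 and 0.936 in shNC and 2.25 and 1.74 in shNAT10, and that of *Polr1a* to *Polr3a* was 1.60 and 1.06 in shNC and 1.76 and 1.69 in shNAT10. These ratios have no test, the share of all genes with such a ratio was not computed, and the groups overlapped for *Polr1a* itself.

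**Figure D5:**
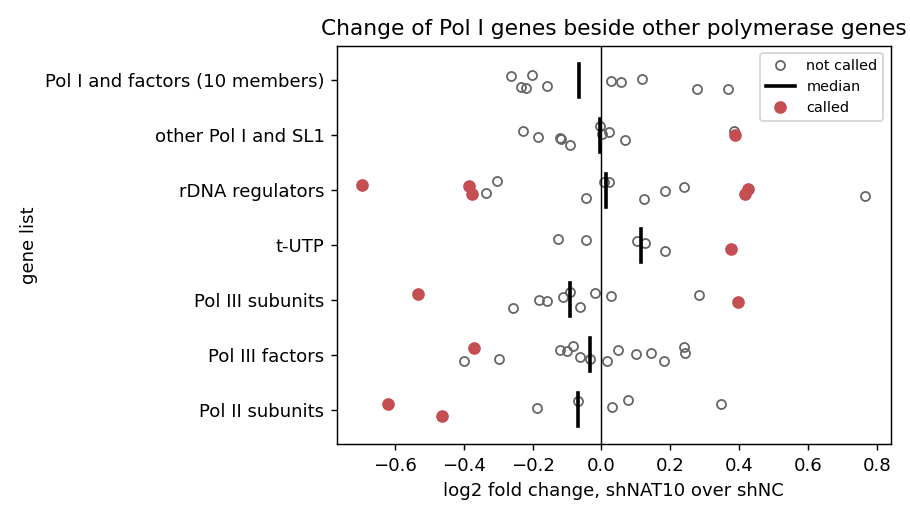
Log2 fold change of shNAT10 over shNC for each gene of the Pol I members and 6 related lists, with filled red points for called genes and black bars for medians. The members hold 0 called genes and a median of -0.07, and the rDNA regulators hold 5 called genes on both sides of 0.

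The genes whose levels over the 4 libraries most resembled the members' median profile were *Rbm17*, *Mrfap1* and *Trp53rka*, with root mean square differences of 0.0175, 0.0182 and 0.0189 on the centred log2 scale. Of 9704 protein-coding genes with a mean of at least 1 FPKM, 323 lay within 0.05. The members' median centred level was 0.085 and 0.019 in shNC against 0.0018 and -0.039 in shNAT10, a nearly flat profile over 4 points.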

How the data were processed

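Long RNA-seq was analysed for 4 libraries, 2 shNC and 2 shNAT10, grouped by the sample labels. Per the labels the reads were handled with cutadapt, HISAT2 and DESeq2 on mm10, and the authors deposited FPKM for 53465 genes. The labels describe selection of poly(A) RNA and the study's methods describe depletion of rRNA. The counting tool, annotation and strand setting are not given in the sources used here. A second deposited table holding the authors' own fold changes and p-values was not used.

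Genes with a mean of at least 0.1 FPKM (20116) were fitted on log2(FPKM + 0.1) with limma 3.58.1 in R 4.3.3 (lmFit, eBayes with trend, two-sided), with Benjamini-Hochberg adjustment over all of them. This scale understates changes of genes with low FPKM. Fragments were recovered with GENCODE M21 exon lengths, and between 96.0% and 96.6% of values under 50 fragments were whole within 0.02, a range over the libraries. The p-values rest on the spread between 2 libraries per group, drawn by eBayes toward a trend fitted over all genes tested. For *Taf1c*, whose libraries lay 0.066 (shNC) and 0.023 (shNAT10) apart on the log2 scale, the SE was 0.14. The p-values and intervals of genes with such close libraries therefore rest mostly on that trend. Genes were named by a written rule (all members, called or non-overlapping Pol I genes, called genes of the other lists, the 3 nearest profiles), and 1 called gene is not reported here. The members and lists were chosen with earlier results of these data known, and the ratios after values were seen. The fit was tested on simulated data. Alternatives covered pseudocount, filter, scaling, trend, replicate block, limma-voom and leaving out each library.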

Additional observations from a re-analysis of the deposited data

How the results depend on the processing

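Over 15 alternatives for each of the 10 members, 134 of 150 estimates kept their direction and their side of the threshold. Of the rest, 8 passed the threshold and 8 reversed. The alternatives of filter, trend and replicate block leave the estimate unchanged by construction, so they could only move the p-value. Scaling to all recovered fragments, chosen after seeing the data, reversed *Polr1b* (0.23), *Polr1c* (0.20), *Taf1b* (0.17), *Taf1c* (0.13) and *Taf1d* (0.19), put 5 members higher, moved the members' median to 0.33, and gave 5287 genes higher and 312 lower, against 1691 and 1576 for the FPKM as deposited. All genes shifted by this construction, with a median of 0.38. With the same FPKM total outside the loci related to ribosomal RNA the members' median was -0.026, beside 0.043 over all genes. Leaving out 1 library reversed *Polr1a* (-0.081 to 0.63, below 0 without shNC replicate 2) and *Rrn3* (-0.13 to 0.18, below 0 without shNC replicate 2 and at -0.056 without shNAT10 replicate 1). It gave 0 to 1 members higher and 0 to 1 lower, and a members' median from -0.15 to 0.030. Over all genes it gave 1108 to 1734 higher and 899 to 1659 lower, the lowest of both without shNAT10 replicate 1, and 1007 lower without shNAT10 replicate 2. For *Nat10* these fits gave -1.35 to -0.83, with the threshold missed at -1.07 and -1.11. Each such fit left 1 library in a group, assumed to vary like the others.

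Same-numbered libraries did not deviate together (correlation across genes 0.00711). Whether they were made in pairs is not given in the sources used here, and this correlation cannot decide it. With the replicate block 0 members were called and *Nat10* stayed at -1.09 (limma unadjusted p = 0.00421). Among the named genes the block ended the calls of *Phf8* (limma unadjusted p = 0.0771) and *Polr2a* (limma unadjusted p = 0.0665). Among the 10 members, depth limits *Taf1c* most, at 95 to 118 fragments a library.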
